A study of Mus musculus with 2 samples.

Results

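The regulatory T cell genes Foxp3, Ikzf2, Il2ra, Tnfrsf4 and Tnfrsf18 were followed in single-cell RNA counts of mouse tumours. They are 5 of the 28692 genes of the deposited matrices, chosen by symbol for their known place in these cells. Regulatory T cells are CD4 T cells that restrain other lymphocytes, and tumours often hold many of them. Foxp3 (ENSMUSG00000039521) is the transcription factor that defines the lineage, and Ikzf2 (ENSMUSG00000025997) encodes Helios, a zinc finger factor found in many regulatory T cells and in some activated T cells. Il2ra (ENSMUSG00000026770) encodes CD25, the chain that gives the interleukin-2 receptor its high affinity. Regulatory T cells depend on interleukin-2 made by other T cells, whose signal reaches the nucleus through STAT5. Tnfrsf4 (ENSMUSG00000029075) encodes OX40 and Tnfrsf18 (ENSMUSG00000041954) encodes GITR, costimulatory receptors of the tumour necrosis factor receptor superfamily that activated T cells also carry.

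The TAK-981 group was 1 library of a tumour or tumours taken 8 h after an intravenous dose of 7.5 mg/kg, and the vehicle group was 1 library taken 8 h after 20% HPbCD, a cyclodextrin. TAK-981 blocks the activating enzyme of the SUMO pathway, which attaches a small ubiquitin-like protein to other proteins. Both groups were Balb/c mice with a subcutaneous tumour grown from 1000000 cells of A20, a Balb/c B cell lymphoma line, in hosts that keep their own T cells, and dosing began at about 300 mm3. Neither the age nor the number of mice behind a library is given, so pooling cannot be told from the labels. With 1 library per arm there was no test between the arms, and every interval below is a 95% interval that covers counting error only, not differences between mice.

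The TAK-981 library held 2396 barcodes and 37470319 unique molecular identifiers (UMIs, counts of distinct captured transcripts), and the vehicle library held 2579 barcodes and 57471750 UMIs. The share of barcodes with 10% or more mitochondrial UMIs was 15.7% (14.3 to 17.2%) for TAK-981 and 4.81% (4.01 to 5.71%) for vehicle, and these were left out. T cells were barcodes with at least 2 UMIs of Cd3d, Cd3e and Cd3g together and under 5 of the B cell genes Cd79a, Jchain and Mzb1 together. The TAK-981 library had 40 of them (325260 UMIs, median 6660.5 per cell) and the vehicle library 47 (519831 UMIs, median 8148). All 8 T cell markers examined were present in both sets. The limit on B cell genes had removed 5 TAK-981 and 13 vehicle cells with CD3 UMIs. The libraries shared 11 barcodes, none of them a T cell. Neutrophil and mast cell markers were at 0 UMIs in the T cells of both libraries. The 6 monocyte/macrophage markers summed to 10 UMIs, all in 1 cell, in TAK-981 T cells and to 1 UMI in vehicle T cells, and the 6 B cell/A20 markers to 20 and 12 UMIs. Their part in the results was not tested. The cell with 10 such UMIs is among the TAK-981 cells with a Foxp3 UMI, and values without it are given for some comparisons only. For the counts and medians of the gene lists they are not given.

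The RefSeq promoter table (build GRCm38.p6) held 5 windows of 4 of the genes (Foxp3 with 2, Il2ra, Tnfrsf4 and Tnfrsf18), and Ikzf2 was not matched. Each window was taken as the 250 bases before the transcript start. The 3 printed windows of these genes stand beside those of Isg15 and Ifit1 because, of the gene lists examined, the interferon-response genes had by far the largest ratios between the libraries, while those of the 5 genes were small. Capitals mark matches of TTCNNNGAA, the core of STAT binding sites, in the Foxp3 and Tnfrsf18 windows, and of GAAA, any 2 bases and GAAA, the core of the interferon-stimulated response element, in the Isg15 and Ifit1 windows. Either strand was searched, and overlapping matches are run together.
Foxp3, chrX:7580233-7580482, plus strand: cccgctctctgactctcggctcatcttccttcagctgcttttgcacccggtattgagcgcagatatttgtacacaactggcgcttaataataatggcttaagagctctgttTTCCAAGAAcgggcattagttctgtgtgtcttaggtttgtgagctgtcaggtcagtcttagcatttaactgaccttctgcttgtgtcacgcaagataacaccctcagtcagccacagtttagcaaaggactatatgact
Tnfrsf18, chr4:156026072-156026321, plus strand: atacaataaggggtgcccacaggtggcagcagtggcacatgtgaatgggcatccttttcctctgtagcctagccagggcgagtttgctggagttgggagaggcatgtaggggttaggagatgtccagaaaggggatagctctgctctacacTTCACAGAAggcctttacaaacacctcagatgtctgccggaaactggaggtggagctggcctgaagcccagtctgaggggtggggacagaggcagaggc
Il2ra, chr2:11642542-11642791, plus strand: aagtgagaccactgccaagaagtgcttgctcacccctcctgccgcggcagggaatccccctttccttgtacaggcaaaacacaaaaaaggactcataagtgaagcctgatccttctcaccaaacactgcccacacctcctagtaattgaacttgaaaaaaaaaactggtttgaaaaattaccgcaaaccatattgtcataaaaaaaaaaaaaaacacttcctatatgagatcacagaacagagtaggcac
Isg15, chr4:156200819-156201068, minus strand: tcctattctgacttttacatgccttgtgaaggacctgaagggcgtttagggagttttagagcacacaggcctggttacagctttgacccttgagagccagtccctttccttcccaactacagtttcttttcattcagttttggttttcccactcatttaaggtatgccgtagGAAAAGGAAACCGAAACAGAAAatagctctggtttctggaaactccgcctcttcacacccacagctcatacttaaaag
Ifit1, chr19:34640639-34640888, plus strand: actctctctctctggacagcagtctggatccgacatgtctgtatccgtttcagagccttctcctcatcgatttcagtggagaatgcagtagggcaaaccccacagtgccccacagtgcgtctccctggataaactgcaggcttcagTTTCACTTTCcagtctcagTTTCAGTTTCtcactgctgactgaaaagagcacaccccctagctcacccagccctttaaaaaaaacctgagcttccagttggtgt
The interferon core was in none of the 5 windows of the regulatory T cell genes and in 2.98% of all 32851 windows of the table. Of the 15 interferon-response genes with a window, 9 held it, among them Isg15 with 3 overlapping matches and Ifit1 with 2. The STAT core was in 2 of the 5 windows, the printed ones of Foxp3 and Tnfrsf18, and in 7.02% of all windows. The other Foxp3 window (chrX:7579426-7579675), which is not printed, held no match of either core. A match describes letters only, and its absence says nothing of sites elsewhere.

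All 5 genes belonged to the T cells of these tumours. Of the UMIs in barcodes under the mitochondrial limit, T cells held 75.9% of Foxp3, 85.5% of Ikzf2, 80.8% of Il2ra, 84.1% of Tnfrsf4 and 90.3% of Tnfrsf18 in the TAK-981 library. In the vehicle library they held 92.3% of Foxp3, 86.9% of Ikzf2, 94.9% of Il2ra, 84.6% of Tnfrsf4 and 84.0% of Tnfrsf18. In cells gated on B cell genes without CD3, which are A20 and host B cells, a Foxp3 UMI was seen in 4 of 1824 TAK-981 cells (0.219%) and 4 of 2277 vehicle cells (0.176%), at median depths of 15936 and 21863 UMIs. The gate leaves out barcodes with a CD3 UMI, so these shares are not an upper bound on the free RNA of Foxp3. Shares of the other genes in these cells were 0 to 0.220%, except Tnfrsf4 at 1.10% in TAK-981 and 0.791% in vehicle cells. Cells gated as monocytes or macrophages held no Foxp3 and no Tnfrsf4 UMI in either library (42 and 41 cells). A count of 0 there allows a share of cells with a UMI of up to 7.14% and 7.32% by the floor of 3, and the exact intervals reach 8.41% and 8.60%. The same cells held 1 Ikzf2 and 3 Il2ra UMIs in the TAK-981 library, and 1 Tnfrsf18 UMI in the vehicle library.

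**Figure D1:**
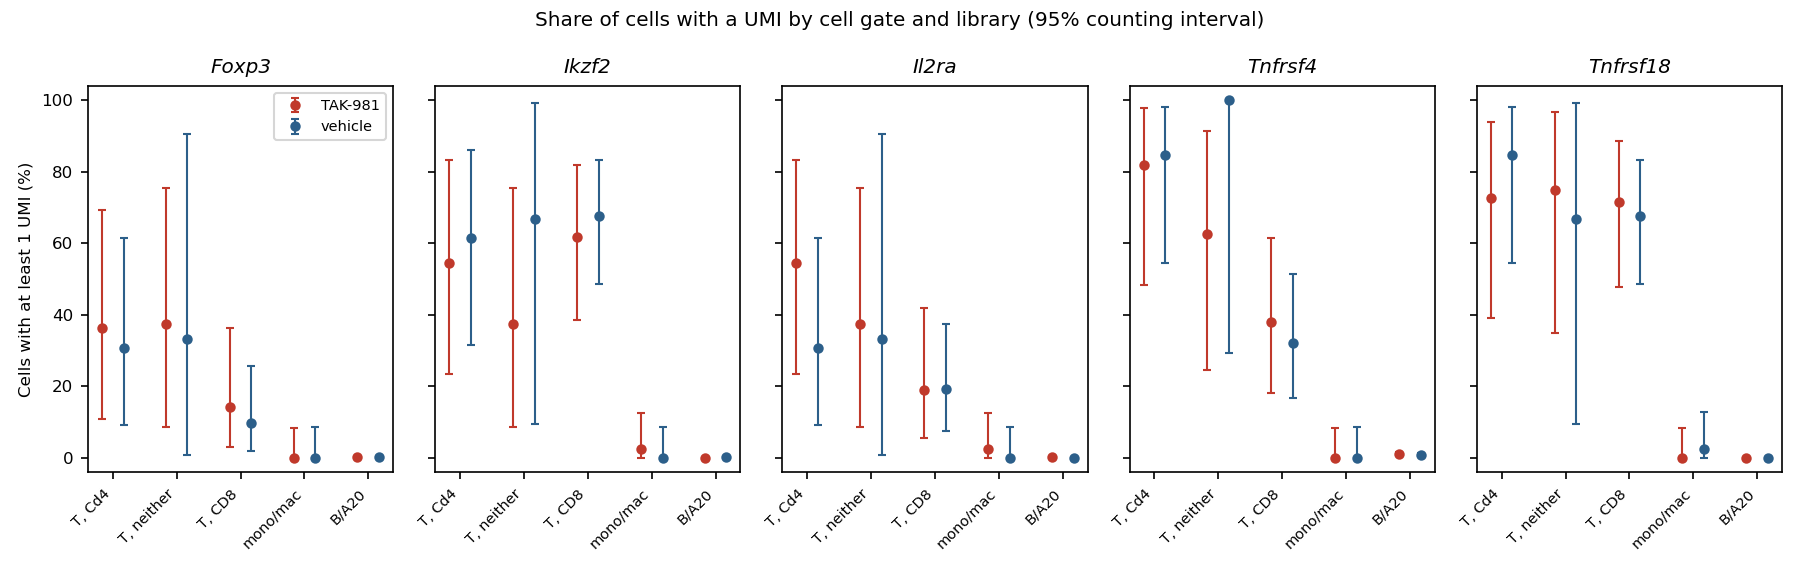
Share of cells with at least 1 UMI of each gene (vertical axis, percent) by cell gate and library, with exact 95% counting intervals. Foxp3 was seen in 36.4% of TAK-981 and 30.8% of vehicle T cells with a Cd4 and no CD8 UMI, and at 0.219% and 0.176% in B cell/A20 cells.

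Among T cells, those with a Cd4 UMI and no CD8 UMI had the highest Il2ra, Tnfrsf4 and Tnfrsf18 in both libraries, the highest Ikzf2 in the TAK-981 and the highest Foxp3 in the vehicle library. T cells with a CD8 UMI lay below them for every gene, with intervals that overlapped for Foxp3 and Il2ra of the TAK-981 library only. In UMIs per 1000000 UMIs of the summed cells (CPM), Foxp3 stood at 105 (50.5 to 194) in 11 such TAK-981 cells and at 182 (113 to 278) in 13 such vehicle cells. In T cells with a Cd8a or Cd8b1 UMI it stood at 32.7 CPM (12.01 to 71.2) in 21 TAK-981 cells and at 65.8 CPM (42.6 to 97.2) in 31 vehicle cells. Il2ra had the same order, with 210 CPM (129 to 325) and 321 CPM (226 to 442) in the Cd4 cells of the TAK-981 and vehicle libraries and 81.8 CPM (45.8 to 135) and 86.9 CPM (59.8 to 122) in the CD8 cells. The gap between Cd4 and CD8 cells was widest for Tnfrsf4, at 800 CPM (630 to 1001) against 186 CPM (128 to 259) in the TAK-981 library and 650 CPM (512 to 815) against 169 CPM (130 to 215) in the vehicle library. Tnfrsf18 stood at 516 CPM (382 to 682) and 624 CPM (489 to 786) in the Cd4 cells and at 196 CPM (138 to 272) and 219 CPM (174 to 271) in the CD8 cells of the TAK-981 and vehicle libraries. Ikzf2 stood at 579 CPM (436 to 753) and 338 CPM (240 to 462) in the Cd4 cells and at 229 CPM (165 to 310) and 184 CPM (144 to 233) in the CD8 cells. Cells with neither marker were few, 8 TAK-981 and 3 vehicle cells, and most of their intervals overlapped those of the Cd4 cells. By share of cells, Ikzf2 and Tnfrsf18 were as frequent in CD8 cells (61.9% and 71.4% in TAK-981, 67.7% for both in vehicle) as in Cd4 cells (54.5% and 72.7%, and 61.5% and 84.6%), within wide intervals.

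TAK-981 T cells were then set against vehicle T cells. None of the 5 was at least 2-fold higher or lower in the TAK-981 library. Of all 6507 genes with at least 10 UMIs in both sets of T cells together, 17.4% were at least 2-fold apart (9.31% higher and 8.07% lower). Their log2 ratios had a median of 0.00, against 0.02 over all genes measured.

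Foxp3 had 22 UMIs in TAK-981 T cells, in 10 of 40 cells, and 48 UMIs in vehicle T cells, in 8 of 47 cells. The level was 67.6 CPM in TAK-981 and 92.3 CPM in vehicle T cells, a log2 ratio of -0.45 (-1.25 to 0.31). The share of cells with a UMI was thus higher, at 25% (12.7 to 41.2%) against 17.02% (7.65 to 30.8%), while the level was lower, and both pairs of intervals overlapped. Counting cells with at least 2 Foxp3 UMIs turned the order of the shares round, to 15% against 17.02%. With each cell thinned to 4000 UMIs the expected shares were 20.1% and 14.3%. In bulk sums such as these, fewer cells of a type and less RNA per cell cannot be told apart without the values per cell that follow. Ikzf2 had 106 UMIs in 22 TAK-981 cells and 119 UMIs in 31 vehicle cells, or 326 and 229 CPM, and was the one gene whose interval lay above 0 (log2 ratio 0.51, 0.12 to 0.90, or 1.42-fold).

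For CD25, Il2ra had 42 UMIs in 13 TAK-981 cells and 75 UMIs in 11 vehicle cells, or 129 and 144 CPM (log2 ratio -0.16, -0.74 to 0.40). OX40 (Tnfrsf4) had 116 UMIs in 22 cells and 154 UMIs in 24 cells, or 357 CPM in TAK-981 and 296 CPM in vehicle T cells (0.27, -0.09 to 0.62). For GITR the libraries were level: Tnfrsf18 had 102 UMIs in 29 TAK-981 cells and 163 UMIs in 34 vehicle cells, which is 314 CPM in both (0.00, -0.37 to 0.37). A 2-fold difference in either direction lay outside the counting interval for these 3 genes and Ikzf2, whereas a 2-fold lower level of Foxp3 lay inside it.

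The partners of these receptors were also measured. The ligand Il2 had 0 UMIs in TAK-981 and 2 UMIs in vehicle T cells, the OX40 ligand Tnfsf4 had 2 and 5, and the GITR ligand Tnfsf18 had 0 in both, so these could not be compared at this depth. Il2rb, the signalling chain that CD25 joins, had 103 TAK-981 and 147 vehicle UMIs in T cells (log2 ratio 0.16, -0.21 to 0.54). The common chain Il2rg had 214 and 246 UMIs and was 1.39-fold higher (0.48, 0.20 to 0.75).

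**Figure D2:**
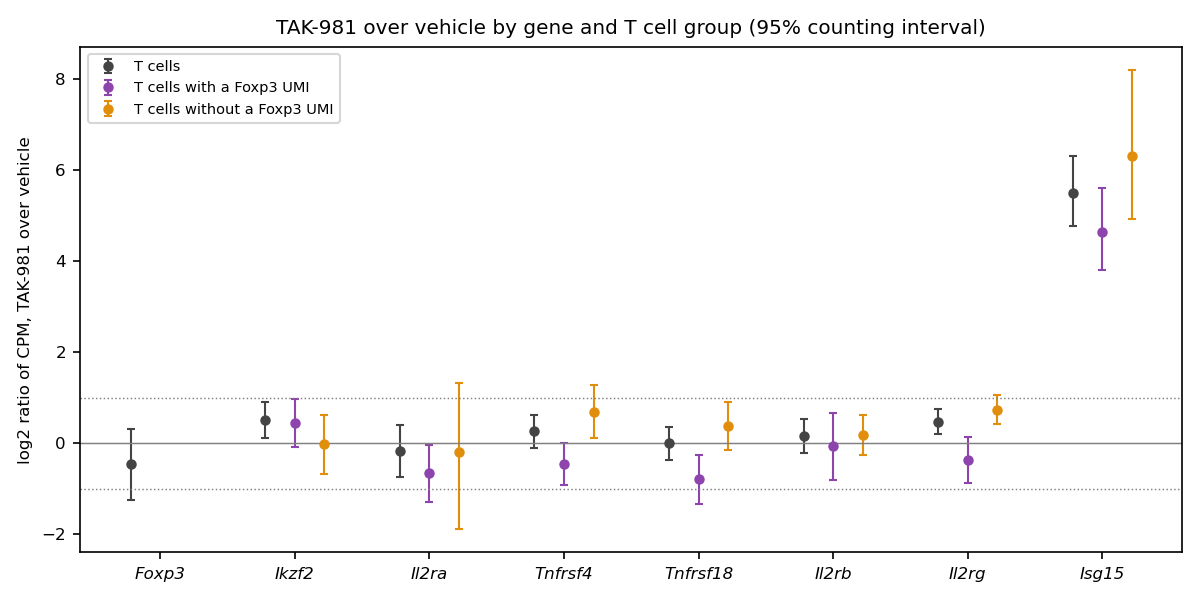
Log2 ratio of CPM, TAK-981 over vehicle (vertical axis), for the 5 genes, 2 other interleukin-2 receptor chains and Isg15, in all T cells, T cells with a Foxp3 UMI and T cells without one, with 95% counting intervals; dotted lines mark 2-fold, and Foxp3 is drawn for all T cells only because it chose the other groups. Isg15 stands at 4.64 to 6.32, and Tnfrsf4 and Tnfrsf18 lie below 0 in Foxp3 cells and above 0 in the other T cells.

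The TAK-981 library had 10 T cells with a Foxp3 UMI, and the vehicle library 8. Foxp3 chose them, so its values describe the choice. The 10 TAK-981 cells held 1 to 4 Foxp3 UMIs (median 2.5), with 1 UMI in 4 of them, and the 8 vehicle cells held 2 to 12 (median 5). At least 2 Foxp3 UMIs were found in 6 TAK-981 and 8 vehicle cells. Their median depth was 6460 UMIs (TAK-981) and 8427.5 UMIs (vehicle), close to the 6889.5 and 8115 of the other T cells. A Cd4 UMI was present in 6 of 10 and 7 of 8 of them, a Cd8a UMI in none, and a Cd8b1 UMI in 3 and 3, at no more than 2 UMIs a cell.

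One TAK-981 Foxp3 cell stood apart. It held 4 Foxp3 UMIs, all 10 monocyte/macrophage marker UMIs and 76 Cd74 UMIs, with no Cd4, Ctla4 or Icos UMI, and 81 Isg15 UMIs, the most of any T cell. One vehicle Foxp3 cell with 20979 UMIs held 127 Cd74 UMIs, and one TAK-981 Foxp3 cell held an NK marker (Ncr1, 2 UMIs). Their part in the results was not tested beyond leaving the first cell, or both cells rich in Cd74, out.

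The other 4 genes stood at higher levels in the Foxp3 cells than in the other T cells of both libraries. Il2ra had 36 UMIs in the 10 TAK-981 Foxp3 cells and 6 in the 30 other T cells, 19.2 times the level (log2 ratio 4.26, 3.00 to 5.80). In the vehicle library it had 63 UMIs in 8 Foxp3 cells and 12 in 39 other T cells, 26.4 times the level (4.72, 3.82 to 5.75). The TAK-981 log2 ratio was 2.92 against T cells without a CD8 UMI only and 2.80 with at least 2 Foxp3 UMIs. The Foxp3 cells thus held 85.7% of the Il2ra UMIs of TAK-981 T cells and 84% of those of vehicle T cells. The shares were lower for the others, at 67.9% and 49.6% for Ikzf2 and 56.9% and 64.9% for Tnfrsf4. For Tnfrsf18 they were 45.1% and 54.0%. Of all genes with at least 10 UMIs, 15.3% (TAK-981 library) and 18.2% (vehicle library) were at least 2-fold higher in Foxp3 cells, and all 4 genes were.

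Ikzf2 was found in every Foxp3 cell, 10 of 10 and 8 of 8, against 12 of 30 other TAK-981 and 23 of 39 other vehicle T cells. Its level in Foxp3 cells was 6.78 times that of the other T cells in the TAK-981 library (log2 2.76, 2.15 to 3.39) and 4.95 times in the vehicle library (2.31, 1.76 to 2.85), and with at least 2 Foxp3 UMIs the TAK-981 log2 ratio was 1.75. Tnfrsf4 was 4.22 times as high in TAK-981 (log2 2.08, 1.53 to 2.64) and 9.31 times as high in vehicle Foxp3 cells (3.22, 2.73 to 3.73). Tnfrsf18 was 2.63 times as high in TAK-981 (log2 1.39, 0.80 to 1.98) and 5.90 times as high in vehicle Foxp3 cells (log2 2.56, a ratio of 4.29 to 8.14 by its interval). For both TNF receptors the interval of the TAK-981 library lay below that of the vehicle library. Set against T cells without a CD8 UMI only, the log2 ratio was smaller, at 0.64 in TAK-981 and 1.56 in vehicle for Tnfrsf18. For Tnfrsf4 it was 1.21 and 1.52. Tnfrsf18 thus no longer reached 2-fold in the TAK-981 library. Against all other T cells, leaving out the cell with monocyte/macrophage UMIs gave TAK-981 log2 ratios of 2.87 (Ikzf2), 4.26 (Il2ra), 2.22 (Tnfrsf4) and 1.53 (Tnfrsf18).

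Cell by cell the 4 genes appeared together. All 4 were detected in 8 of 10 TAK-981 and 6 of 8 vehicle Foxp3 cells, and in 1 of 30 and 1 of 39 other T cells. At least 3 of the 4 were detected in 80% (44.4 to 97.5%) and 100% (63.1 to 100%) of Foxp3 cells, against 26.7% (12.3 to 45.9%) and 28.2% (15 to 44.9%) of the other T cells. The other T cell with all 4 held 12 Ikzf2, 1 Il2ra, 13 Tnfrsf4 and 7 Tnfrsf18 UMIs in the TAK-981 library, and 5, 2, 9 and 2 in the vehicle library. These cells held 10 and 23 UMIs of Ctla4, an inhibitory receptor, and 2 Cd4 UMIs each. The vehicle cell also held 2 Cd8b1 UMIs and so counts among the cells with a CD8 UMI. A Foxp3 transcript missed at this depth cannot be told apart from its absence in either cell.

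**Figure D3:**
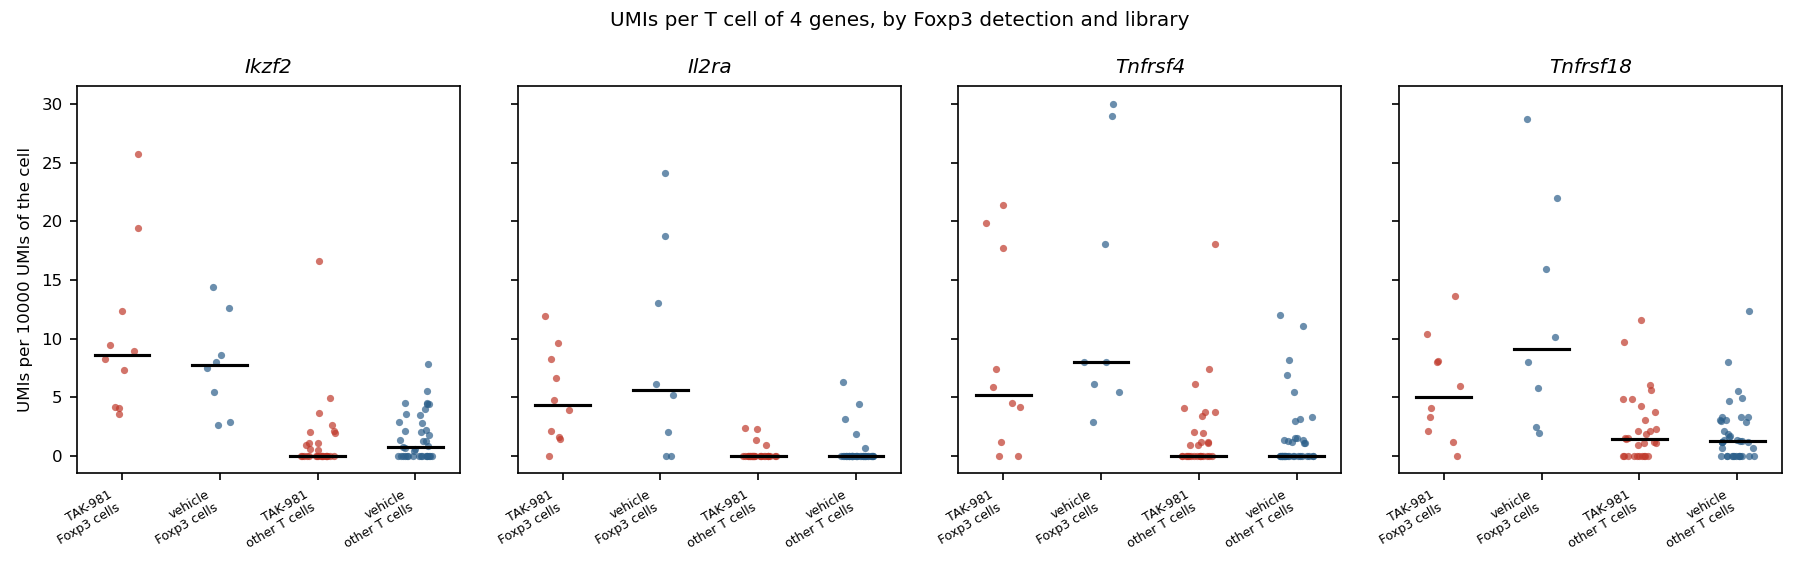
UMIs of Ikzf2, Il2ra, Tnfrsf4 and Tnfrsf18 per 10000 UMIs of the cell (vertical axis), 1 point per T cell, with the median as a bar, for Foxp3 cells and other T cells of each library. Foxp3 cells lie above most other T cells, with medians per 10000 UMIs of 8.59 and 7.76 for Ikzf2 in TAK-981 and vehicle Foxp3 cells, against 0 and 0.779 in the other T cells.

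In these 4 genes the Foxp3 cells differed less between the libraries than from all other T cells of their own library. Against other T cells without a CD8 UMI this did not hold for Tnfrsf18 in the TAK-981 library, at 0.64 within that library beside -0.78 between the libraries. None of the 4 was at least 2-fold apart between the libraries, beside 23.4% of the 2521 genes with at least 10 UMIs in Foxp3 cells. Il2ra passed 2-fold lower without both cells rich in Cd74 (log2 ratio -1.06), and so did Tnfrsf18 as a mean over cells (-1.06). Per cell, Ikzf2 had 2 to 16 UMIs (median 6) in TAK-981 and 2 to 11 (median 7.5) in vehicle Foxp3 cells. It summed to 72 and 59 UMIs, a log2 ratio of 0.44 (-0.07 to 0.96). Il2ra had 0 to 8 UMIs per cell (median 3) in TAK-981 and 0 to 21 (median 4.5) in vehicle Foxp3 cells. Its sums were 36 and 63 UMIs (log2 ratio -0.65, -1.29 to -0.04), and the vehicle cell with the most held 33.3% of them.

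Tnfrsf4 had 0 to 21 UMIs per cell (median 5.5) in TAK-981 and 5 to 31 (median 7.5) in vehicle Foxp3 cells, with sums of 66 and 100 (log2 ratio -0.44, -0.92 to 0.02). Tnfrsf18 had 0 to 11 UMIs per cell (median 4) in TAK-981 and 2 to 22 (median 10.5) in vehicle Foxp3 cells. Its sums were 46 and 88, and its ratio was the lowest of the 4 (-0.78, -1.33 to -0.25, or 0.582 times). The values per cell of the 2 libraries overlapped for all 4 genes. Without the cell that held the monocyte/macrophage UMIs the ratios were 0.55 for Ikzf2, -0.66 for Il2ra, -0.30 for Tnfrsf4 and -0.65 for Tnfrsf18. The 4 TAK-981 cells with a single Foxp3 UMI have no counterpart in the vehicle library, and with at least 2 Foxp3 UMIs the 4 genes kept their directions.

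In the T cells without a Foxp3 UMI, Tnfrsf4 had 50 UMIs in 30 TAK-981 and 54 UMIs in 39 vehicle cells (log2 ratio 0.70, 0.11 to 1.28). Tnfrsf18 had 56 and 75 UMIs (0.39, -0.14 to 0.90), Ikzf2 34 and 60 (-0.01, -0.66 to 0.62) and Il2ra 6 and 12 (-0.19, -1.89 to 1.33). None of these 4 was 2-fold apart, beside 19.3% of the 5850 genes measured there (10.2% higher and 9.13% lower). Tnfrsf4 and Tnfrsf18 had ratios of opposite sign in the cells with and without a Foxp3 UMI, with intervals that did not overlap, as had 2.78% of the 2448 genes measured in both groups. With the other T cells limited to those without a CD8 UMI, Tnfrsf4 was below vehicle in both groups. Those cells held 30 Tnfrsf4 UMIs in 12 TAK-981 and 35 in 11 vehicle cells. Tnfrsf18 kept opposite signs by point value, with 31 and 30 UMIs in those cells.

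The wider set of genes associated with regulatory T cells lay on both sides of 0 between the libraries. Of 14 measured surface and secreted genes in T cells, 1 was at least 2-fold higher in the TAK-981 library, Areg, a growth factor of the EGF family (24 UMIs against 19), and 1 lower, Il1rl1, the interleukin-33 receptor (1 against 9), beside 9.31% of all genes higher and 8.07% lower. The list's median log2 ratio was 0.18, against 0.02 over all genes. A single cell held 79.2% of the TAK-981 and 94.7% of the vehicle Areg UMIs. Ctla4 had 158 and 248 UMIs (0.03, -0.27 to 0.32). Of 16 measured transcription factors 2 were at least 2-fold higher and 1 lower (median 0.10), again beside 9.31% and 8.07%. These were Tbx21, which encodes T-bet, the factor of type 1 responses (18 UMIs against 10), Maf (18 against 13) and the forkhead factor Foxo3 (3 against 10). Il10, the inhibitory cytokine, had 0 UMIs in T cells of both libraries.

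In Foxp3 cells 1 of 13 measured surface and secreted genes was at least 2-fold higher in the TAK-981 library (Entpd1, the ectonucleotidase CD39, 9 UMIs against 5) and 1 lower (Il1rl1, 1 against 9), beside 11.3% of all genes higher and 12.1% lower. The list's median was -0.25, against -0.05 over all genes. Ctla4 had 0 to 33 UMIs per cell (median 7) in TAK-981 and 4 to 40 (median 16.5) in vehicle Foxp3 cells (log2 ratio -0.37, -0.74 to 0.00). Of 11 transcription factors, Tbx21 (10 UMIs against 3) and Ikzf3, which encodes Aiolos (10 against 4), were at least 2-fold higher. Gata3, the factor of type 2 responses, was lower with 6 UMIs against 20 (-1.58, -3.19 to -0.21), and so was Foxo1 with 4 against 13. The median of the factors was 0.00.

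The interleukin-2 axis held 1 gene higher and 1 lower of 14 measured in T cells (median 0.14), beside 9.31% and 8.07% of all genes. Socs1, an inhibitor of JAK kinases that interferons also induce, had 40 TAK-981 and 18 vehicle UMIs and was 3.55-fold higher (1.99 to 6.58). Cish, a feedback inhibitor induced by STAT5, had 3 and 12 UMIs (log2 ratio -1.32, -3.79 to 0.57). In Foxp3 cells 2 of 11 were higher (Socs3 and Socs1) and 3 lower (Il7r, Cish and Socs2), beside 11.3% and 12.1% of all genes, with a median of -0.36. Il7r, the interleukin-7 receptor, had 11 UMIs in TAK-981 Foxp3 cells and 39 in vehicle ones (log2 ratio -1.67, -2.79 to -0.68), and 27 and 17 in the other T cells (1.47, 0.55 to 2.44).

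Of 13 measured ligands, receptors and signalling genes of the tumour necrosis factor superfamily, 2 were at least 2-fold higher in TAK-981 T cells (Tnfrsf25, the death receptor DR3, 9 UMIs against 3, and the adaptor Traf6, 8 against 6). One was lower, the CD30 ligand Tnfsf8, with 2 UMIs in 2 cells against 17 in 9 cells (log2 ratio -2.41, -5.57 to -0.34). Over all genes these shares were 9.31% and 8.07%. The median was 0.02, as over all genes. Of 5 such genes measured in Foxp3 cells, none was higher and Nfkb2 was lower (6 UMIs against 14), beside 11.3% and 12.1%, with a median of -0.43.

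In the T cells without a Foxp3 UMI the genes of these 4 lists at least 2-fold apart are named here, beside the 10.2% higher and 9.13% lower of all genes there. Of 9 surface and secreted genes, Icos was higher (93 TAK-981 and 73 vehicle UMIs) and the folate receptor family gene Izumo1r lower (5 and 18). Of 14 transcription factors, Runx1 was higher (11 and 8). Of 12 genes of the interleukin-2 axis, Socs1 (26 and 12) and Il7r were higher and the interleukin-4 receptor chain Il4ra lower (5 and 18). Of 11 genes of the tumour necrosis factor superfamily, Tnfrsf25 was higher (8 and 3) and Tnfsf8 lower (2 and 17).

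**Figure D4:**
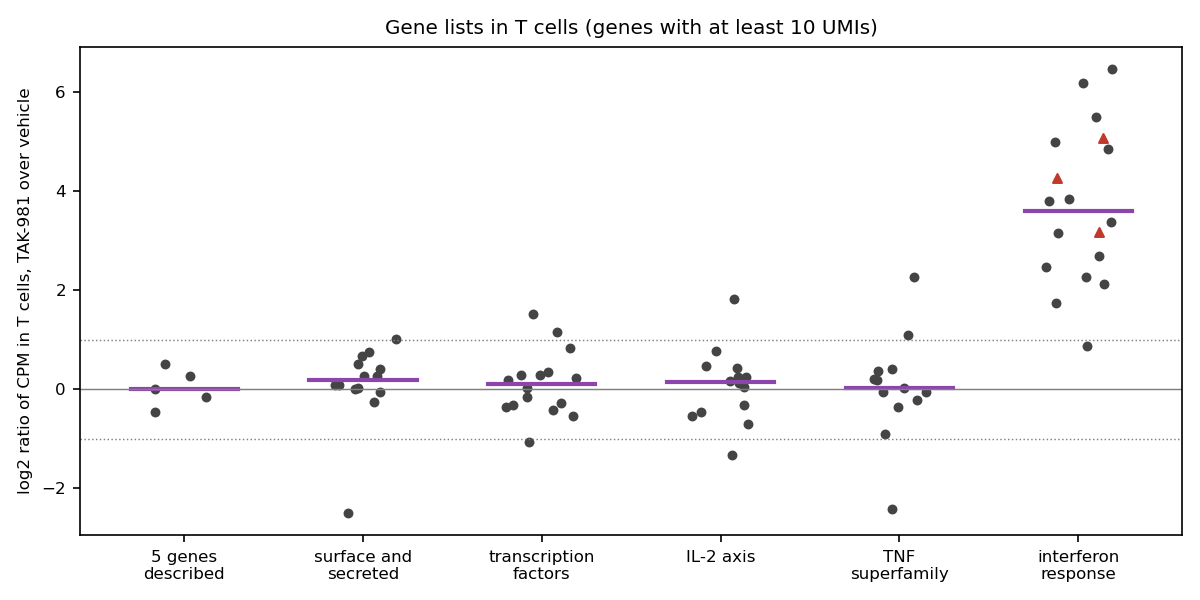
Log2 ratio of CPM in T cells, TAK-981 over vehicle (vertical axis), 1 point per gene with at least 10 UMIs, by gene list, with the median as a bar; triangles are lower bounds for genes with 0 vehicle UMIs and dotted lines mark 2-fold. The 5 genes lie between -0.45 and 0.51, and 17 of 18 interferon-response genes lie above 2-fold.

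Interferon-response genes were higher in TAK-981 T cells with and without Foxp3. In all T cells the TAK-981 library was at least 2-fold higher for 17 of 18 measured genes and lower for none (median log2 ratio 3.59), beside 9.31% of all genes higher. Rtp4, which encodes a receptor transporter protein, had 55 UMIs against 1 (log2 ratio 6.46, 3.92 to 11.8), and Usp18, the protease that removes ISG15 from proteins, 40 against 2 (31.96-fold, 8.29 to 273). Ifit1 had 91 UMIs against 2, Isg15 451 against 16 and Rsad2 63 against 0. In Foxp3 cells 13 of 15 were higher and none lower (median 2.48), and in the other T cells 17 of 17 (median 3.61), beside 11.3% and 10.2% of all genes there. Isg15, a ubiquitin-like modifier, had 2 to 81 UMIs per cell (median 19) in TAK-981 and 0 to 4 (median 1) in vehicle Foxp3 cells. All 10 TAK-981 cells and 5 of 8 vehicle cells held it. It was 24.96-fold higher (14.1 to 48.9, log2 4.64), and at a log2 ratio of 4.29 without the cell that held the monocyte/macrophage UMIs.

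Further interferon genes of Foxp3 cells were the exonuclease Isg20, with 61 UMIs against 5 (log2 ratio 3.76, 2.46 to 5.44), and Irf7, which amplifies the interferon response, with 48 against 4 (3.74, 2.29 to 5.67). Rsad2, which encodes the antiviral enzyme viperin, had 34 UMIs against 0, at least 12.6-fold higher by a floor of 3 UMIs over the group. Ifit1, which binds viral RNA, had 31 UMIs against 1, of which 1 cell held 87.1%. The 20 genes of the list together made up 16.1 to 367 UMIs per 10000 (median 56.3) in TAK-981 and 6.20 to 38.1 (median 19.6) in vehicle Foxp3 cells. In the other T cells they made up 2.01 to 290 (median 32.6) and 0 to 25.4 (median 3.29).

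Within the vehicle library the Foxp3 cells already held more of these transcripts than the other T cells, with a 2-fold or larger excess for 7 of 9 measured genes (median log2 ratio 2.04), beside 18.2% of all genes. Igtp and Ifi47, GTPases of the interferon response, were 5.59 times (2.81 to 11.2) and 4.12 times (2.08 to 8.04) as high in vehicle Foxp3 cells as in the other T cells there. In the TAK-981 library 10 of 18 were at least 2-fold higher in Foxp3 cells (median 1.07), beside 15.3%. Of the other T cells compared, 18 of 30 in the TAK-981 and 28 of 39 in the vehicle library held a CD8 UMI. Isg15 stood at 933 CPM in all TAK-981 T cells with a CD8 UMI. It stood at 1515 CPM in those with a Cd4 and no CD8 UMI and at 2898 CPM in those with neither. The vehicle values were 13.2, 60.7 and 162 CPM. The excess of Foxp3 cells over other T cells without a CD8 UMI was not computed by gene, and whether it holds against them was not tested. Interferon-list UMIs per cell were 1, 2, 11, 24, 49, 55, 60, 61, 62, 64, 83 and 142 in these 12 TAK-981 cells. They were 10, 17, 20, 25, 62, 64, 82, 118, 178 and 181 in the 10 TAK-981 Foxp3 cells. The 181 were in the cell with monocyte/macrophage UMIs. In the vehicle library they ran from 0 to 8 in 11 such other cells and from 5 to 31 in the 8 Foxp3 cells.

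**Figure D5:**
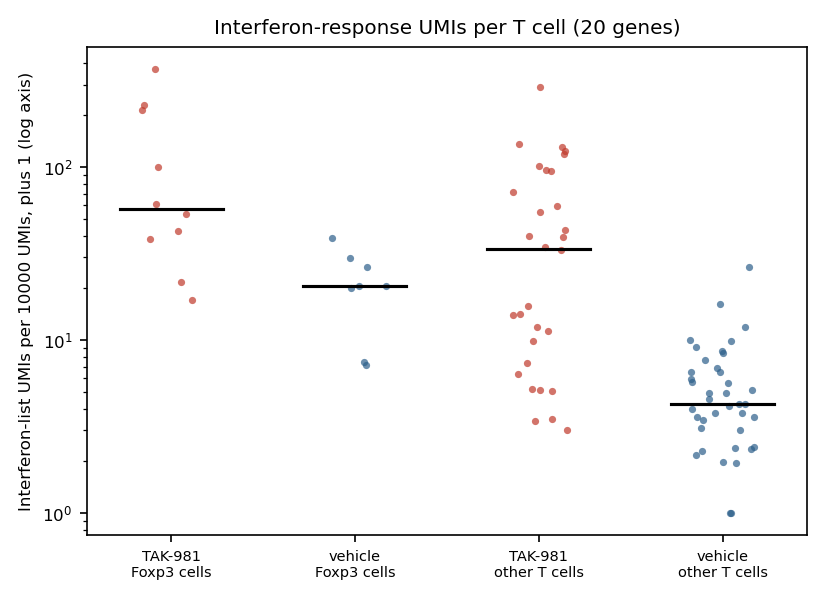
UMIs of 20 interferon-response genes per 10000 UMIs of the cell, with 1 added (vertical log axis), 1 point per T cell, with the median as a bar. Medians before the addition were 56.3 and 19.6 in TAK-981 and vehicle Foxp3 cells and 32.6 and 3.29 in the other T cells.

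Foxp3 cells of both libraries also shared further genes of the lists relative to the other T cells of their own library. Of the surface and secreted genes, 10 of 11 measured among TAK-981 T cells and 11 of 12 among vehicle T cells were at least 2-fold higher in Foxp3 cells (median log2 ratios 1.83 and 2.53), beside 15.3% and 18.2% of all genes. Ctla4 was 6.52 times (4.64 to 9.28) and 7.96 times (6.13 to 10.4) as high, and Capg, an actin-capping protein, 6.32 times (4.29 to 9.44) and 6.06 times (4.40 to 8.39). Klrg1, an inhibitory receptor of differentiated lymphocytes, had 28 UMIs in 3 TAK-981 Foxp3 cells and 7 in 2 other T cells, and 32 UMIs in 6 vehicle Foxp3 cells and 1 in 1 other T cell. Of the transcription factors, 7 of 14 measured were at least 2-fold higher and 3 lower in the TAK-981 library, and 7 of 16 higher and 2 lower in the vehicle library, beside 11.2% and 10.5% of all genes lower. Maf, Gata3 and Runx1 were among those higher in both, and Satb1, a chromatin organiser, was lower in both (2 UMIs against 31, and 4 against 62). Foxo1 (4 against 27) and Runx3 (3 against 20) were lower in TAK-981 Foxp3 cells and Ikzf1 (2 against 33) in vehicle Foxp3 cells.

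Genes whose detection was most like that of Foxp3 were ranked among 2559 genes seen in at least 30% of the Foxp3 cells of each library, by the smaller of the 2 libraries' gaps in share of cells between Foxp3 cells and other T cells. Il2ra ranked 4, with 9 of 10 Foxp3 cells against 4 of 30 other T cells in the TAK-981 library and 6 of 8 against 5 of 39 in the vehicle library, a smaller gap of 62.2 percentage points. Ikzf2 ranked 20, Tnfrsf4 59 and Tnfrsf18 237. Psen2, which encodes a presenilin protease subunit, ranked 1, in 9 of 10 against 4 of 30 and 8 of 8 against 11 of 39 cells. It was also found in 48.1% of TAK-981 and 56.2% of vehicle B cell/A20 cells, and the part of free RNA in its share in T cells was not tested. Sdcbp2, a syntenin family gene, ranked 2 (7 of 10 against 1 of 30, and 6 of 8 against 3 of 39) and was in 0.165% and 0.176% of B cell/A20 cells. Ly6a, which encodes Sca-1, followed with a smaller gap of 63.3 points, and then, after Il2ra, Rrad, Nfkbie, Izumo1r, Vrk1, Wls and Maf with 56.7 to 50 points. B cell/A20 cells also held Ly6a (51.0% of TAK-981 and 55.9% of vehicle cells), Vrk1 (62.3% and 72.1%) and Nfkbie (19.4% and 20.6%). Rrad was in 5.76% and 7.86% of them. The part of free RNA in the T cell shares of these genes was not tested either. Izumo1r, the folate receptor family gene known as FR4 on regulatory T cells, was in 8 of 10 against 4 of 30 and 6 of 8 against 9 of 39 cells, and in no B cell/A20 cell. The points are cells of 2 libraries, and the ranking is a description.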

How the data were processed

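Single-cell RNA libraries (10x Genomics 5' kit, after dead cell removal) were available for the TAK-981 and the vehicle arm, 1 each. Per the file headers, the deposited matrices hold UMI counts, whole numbers without normalization, for each gene in each barcode. Cell Ranger 2.1.1 and Seurat 2 are named, with no role, in the submitters' processing notes. The build and gene annotation behind the counts: not given in the sources used here. The lowest total per barcode was 4670 and 5965 UMIs, so barcodes had been selected before deposit. Doublets were not called. Barcodes with 5 or more B cell UMIs were left out of the T cells.

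From the counts, UMIs were summed over cells and scaled to CPM. Ratios carry the exact conditional binomial 95% interval, shares the Clopper-Pearson interval, and a count of 0 a floor of 3 UMIs. UMIs were taken as independent, so intervals leave out variation between cells and mice and are too narrow. "Measured" means at least 10 UMIs in both groups together. No p-value was computed. The interval code was run on simulated independent counts only. These hold no variation between cells or mice, so coverage under such variation was not tested. Thinned shares are expectations after drawing 4000 UMIs per cell, and no T cell was shallower.

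The members and lists were chosen with earlier results of these data known. Of the lists, genes at least 2-fold apart in T cells were named, up to 5 per direction, with the 5 genes, Il2, Tnfsf4, Tnfsf18, Il2rb and Il2rg at any value. Examples such as Ctla4, Igtp, Ifi47 and Il10, and those named only in Foxp3 cells or other T cells, were chosen after their values were seen, and 1 gene of the interferon list is not reported here by itself. Tools were scipy 1.17.1, numpy 2.4.6 and pandas 2.3.3 in Python 3.11.15, with plots from matplotlib 3.10.9. Promoter sequences came from RefSeq (GRCm38.p6).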

Additional observations from a re-analysis of the deposited data

Results flagged for a closer look

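For 5 of 47 described or listed genes measured in both groups of T cells, the TAK-981 over vehicle ratio had opposite signs in cells with and without a Foxp3 UMI, with counting intervals that did not overlap. The same held for 68 of all 2448 genes measured in both groups (2.78%), of which 52 were below vehicle in Foxp3 cells. The difference was not tested, since each arm is 1 library, and its interval covers counting error only. All 5 of the first group were below vehicle in Foxp3 cells and above vehicle in the other T cells. Tnfrsf4 differed by -1.14 on the log2 scale (-1.85 to -0.43), at -0.44 in Foxp3 cells and 0.70 in the others. Tnfrsf18 differed by -1.17 (-1.88 to -0.45). Set against T cells without a CD8 UMI only, the difference was -0.32 for Tnfrsf4 and -0.92 for Tnfrsf18. Tnfrsf4 was then below vehicle in both groups. The difference was -0.853 for Il2rg and -2.75 for Icos (37 TAK-981 and 7 vehicle UMIs in 12 and 11 such cells). For Il7r it was -5.77 (16 UMIs and 1 UMI).

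The common chain Il2rg differed by -1.11 (-1.68 to -0.53), with 749 CPM in TAK-981 and 963 CPM in vehicle Foxp3 cells and 630 and 376 CPM in the other T cells. Icos, a costimulatory receptor, differed by -1.41 (-2.05 to -0.76). Il7r differed most, by -3.15 (-4.45 to -1.84), with 142 and 452 CPM in TAK-981 and vehicle Foxp3 cells and 109 and 39.2 CPM in the others. Without the cell that held the monocyte/macrophage UMIs the 5 differences ran from -2.98 for Il7r to -0.996 for Tnfrsf4.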

How the results depend on the processing

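Over 50 results and 320 alternatives, of which those on Foxp3 cells between libraries and on the differences were chosen after seeing the data, 285 values stayed within the counting interval, the list's quartiles or 1.5 times the count, 35 moved and none that was 2-fold turned round. In T cells the log2 ratio ran from -0.70 to -0.04 for Foxp3, 0.39 to 0.74 for Ikzf2, -0.35 to 0.08 for Il2ra, -0.08 to 0.49 for Tnfrsf4 and -0.19 to 0.12 for Tnfrsf18. The mean over cells equals the thinned ratio by construction. In Foxp3 cells Il2ra ran from -1.06 to -0.45, Tnfrsf18 from -1.06 to -0.61, Tnfrsf4 from -0.71 to -0.30, Ikzf2 from 0.18 to 0.55 and Isg15 from 4.02 to 4.77. Il2ra and Tnfrsf18 passed 2-fold lower at their lowest.

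Thinning put vehicle shares at 47.6% for Ikzf2 and 51.9% for Tnfrsf18. With at least 2 Foxp3 UMIs the TAK-981 Foxp3 cells stood above other T cells by 1.75 (Ikzf2) and 2.80 (Il2ra). Against T cells without a CD8 UMI the values were 2.92 (Il2ra), 1.21 (Tnfrsf4) and 0.64 (Tnfrsf18) in TAK-981 and 1.52 (Tnfrsf4) and 1.56 (Tnfrsf18) in vehicle.

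Genes at least 2-fold higher and lower in T cells numbered 92 and 53 at a minimum of 50 UMIs and 1223 and 874 at 1 UMI, since the minimum sets which genes are counted. At 50 UMIs 11 interferon genes were higher, and 0 surface genes, transcription factors or tumour necrosis factor superfamily genes were higher or lower and 0 interleukin-2 genes lower. Among surface genes 0 were higher under median-of-ratios scaling or without cells with an NK marker UMI, and the median was -0.16 as a mean over cells. Of transcription factors 0 were lower as a mean over cells or under 2 B cell UMIs. Of the superfamily 2 were lower as a mean over cells, 1 higher without NK marker cells, and, with no B cell limit, 1 higher with a median of -0.23. With no B cell limit 2 interleukin-2 genes were higher and 0 lower. The cause was not tested.

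No paired analysis was possible because each arm is 1 library, and no replicate was left out for the same reason. With 40 and 47 T cells, differences under 2-fold in genes of few UMIs were not detectable at this depth.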

Other observations

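Gzmb and Mki67 were looked at after their values had been seen. Granzyme B (Gzmb), a protease of cytotoxic granules, had 61 UMIs in 7 of 10 TAK-981 Foxp3 cells and 12 UMIs in 2 of 8 vehicle Foxp3 cells. It was 5.66-fold higher (3.02 to 11.6), and 1 cell of each library held 49.2% and 66.7% of these UMIs. The TAK-981 Foxp3 cells with the most Gzmb UMIs, 30 and 17, each held a single Foxp3 UMI, whereas no vehicle Foxp3 cell did. TAK-981 cells with at least 2 Foxp3 UMIs held 0 to 7 Gzmb UMIs each, and vehicle Foxp3 cells 0 to 8. The ratio at that setting was not computed. In the other T cells Gzmb had 71 UMIs in 9 of 30 TAK-981 and 28 UMIs in 8 of 39 vehicle cells, 4.44-fold higher (2.83 to 7.14).

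The proliferation marker Mki67 had 22 UMIs in 4 of 10 TAK-981 and 47 UMIs in 5 of 8 vehicle Foxp3 cells (log2 ratio -0.94, -1.74 to -0.18). In the other T cells it had 58 UMIs in 14 of 30 TAK-981 and 45 UMIs in 11 of 39 vehicle cells (1.17, 0.59 to 1.77). Within the vehicle library its level in Foxp3 cells was 5.25 times that of the other T cells (3.42 to 8.09), and within the TAK-981 library 1.21 times (0.71 to 2.01). The largest Mki67 counts of vehicle Foxp3 cells were 19 and 14 UMIs, and those of TAK-981 Foxp3 cells 12 and 6. The 4 TAK-981 cells with a single Foxp3 UMI held 0 Mki67 UMIs. Mki67 ratios with at least 2 Foxp3 UMIs were not computed.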
